A study of Mus musculus with 18 samples.

Results

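Of the 27179 genes in the count tables, 10 encode transcription factors that establish or keep T-lineage identity, namely Tcf7, Lef1, Bcl11b, Satb1, Ikzf1, Ikzf3, Ets1, Tcf12, Sox4 and Bcl6. They were taken by name, through the Entrez Gene ID of each mouse symbol, and all 10 were detected, with between 422 and 79692 counts in a library, and passed the filter on low counts. RNA was sequenced from 3 WT, 3 HoilΔCd4 and 3 Sharpin cpdm mice. CD69+ thymocytes of each mouse were sorted by surface MHC I into a low and a high fraction, which gave 6 groups of 3 libraries, with both fractions of a mouse coming from the same animal. In HoilΔCd4 mice Rbck1, which encodes HOIL-1, is deleted by a Cre recombinase under the control of Cd4, so that the loss is limited to T-lineage cells from the DP (CD4+ CD8+) stage onwards. Sharpin cpdm mice carry a spontaneous mutation and lack SHARPIN in all cells, and their C57BL/Ka background had been crossed to C57BL/6 only for a few generations, so the mutation and the background cannot be told apart in them. No treatment is described, and the age of the mice was not given in the sources used here. HOIL-1 and SHARPIN are partners of HOIP in LUBAC, the ligase complex that builds linear ubiquitin chains, and the study asked what its loss does to the transcriptional programme that follows positive selection.

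CD69 appears on thymocytes whose T-cell receptor has been engaged, and surface MHC I increases as positively selected cells mature, so the MHC I low fraction is the earlier stage and the MHC I high fraction the later one. T-lineage identity is laid down by a small circuit of transcription factors. TCF-1 (Tcf7) and LEF-1 (Lef1) are high mobility group proteins that open chromatin and guide CD4 and CD8 fate, BCL11B seals commitment, SATB1 organises chromatin loops in thymocytes, and Ikaros (Ikzf1) and Aiolos (Ikzf3) recruit the NuRD remodelling complex. ETS1 binds next to many of these factors on T-cell enhancers, HEB (Tcf12) is the E protein that pairs with E2A in DP cells, and SOX4 and BCL6 act around positive selection, BCL6 as a repressor.

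The libraries held between 10577966 and 16266128 counts, with a median of 13979793, and levels are given as CPM, each count scaled to the sum of the tested genes in its library after TMM correction. The labels were checked on 4 genes. In the MHC I low fraction Rbck1 was 223 ± 6.09 CPM (mean ± SD, n = 3) in WT and 0.544 ± 0.256 CPM in HoilΔCd4 cells, and 266 ± 2.28 against 5.72 ± 2.81 CPM in the MHC I high fraction. Sharpin mRNA was still present in Sharpin cpdm cells, at 71.5 ± 4.49 CPM in the MHC I low fraction against 91.3 ± 5.76 CPM in WT. In WT, H2-K1, an MHC I heavy chain gene, was 216 ± 5.85 CPM in the MHC I low and 2000 ± 27.1 CPM in the MHC I high fraction, and Cd69 was 404 ± 24 and 123 ± 13.6 CPM. The 10 thymocyte markers were present in every library, and the summed markers of B cells (4.36 to 6.82 CPM), myeloid and dendritic cells (7.03 to 15 CPM), thymic epithelium (6.03 to 12.8 CPM) and erythroid cells (0.345 to 1.66 CPM) were low in every library. The 6 markers of NK and innate lymphoid cells summed to 1.38 to 2.94 CPM in the MHC I low libraries, 11.2 to 12 CPM in WT MHC I high and 13.6 to 21.2 CPM in the MHC I high libraries of the mutants. The higher sums lay in Gzma (4.83 CPM on average in WT, 14.6 in HoilΔCd4 and 7.39 in Sharpin cpdm). Eomes (3.3, 1.55 and 3.08 CPM) and Klrd1 (3.15, 0.812 and 3.62 CPM) were lower in HoilΔCd4 than in WT cells. By Xist and Y-linked transcripts the 3 WT mice were female, as were HoilΔCd4 mouse 3 and Sharpin cpdm mouse 2, and the other mutant mice were male, so sex was unevenly spread over the genotypes. The MHC I high library of HoilΔCd4 mouse 2, a male, held Xist at 64.6 CPM, against 0.606 CPM in its MHC I low library. Rbck1 was 8.94 CPM in that MHC I high library, the highest of the HoilΔCd4 libraries. A fit without that library is among the alternatives below.

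Most of the 10 factors were abundant transcripts of these cells when levels were compared per length (RPKM, the CPM divided by the gene length in kilobases). Tcf7 was the highest in each of the 18 libraries, at 1050 ± 41.7 RPKM in WT MHC I low cells, above 99.9% of the genes tested. Ets1 (719 ± 43.7 RPKM) and Satb1 (711 ± 34.9 RPKM) shared places 2 and 3 in every library. Lef1 stood at 399 ± 25.2 RPKM, place 4, in WT MHC I low cells, and dropped behind Ikzf1 to place 5 in every MHC I high library. At the other end were Tcf12, at 50.3 ± 3.4 RPKM, and Bcl6, at 39 ± 0.935 RPKM, which were in places 9 and 10 in 17 of the 18 libraries and the other way round in HoilΔCd4 mouse 2 MHC I low. Of the 10 genes, Bcl6 had the widest shift in rank between stages, from above 81.9% of the genes tested in WT MHC I low cells to above 49.3% in WT MHC I high cells. Places by RPKM depend on the gene lengths used, which were 2460 bases for Lef1 and 5163 for Ikzf1. In the GENCODE M21 annotation their exons cover 8788 and 5777 bases, and places by those lengths were not computed.

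**Figure D1:**
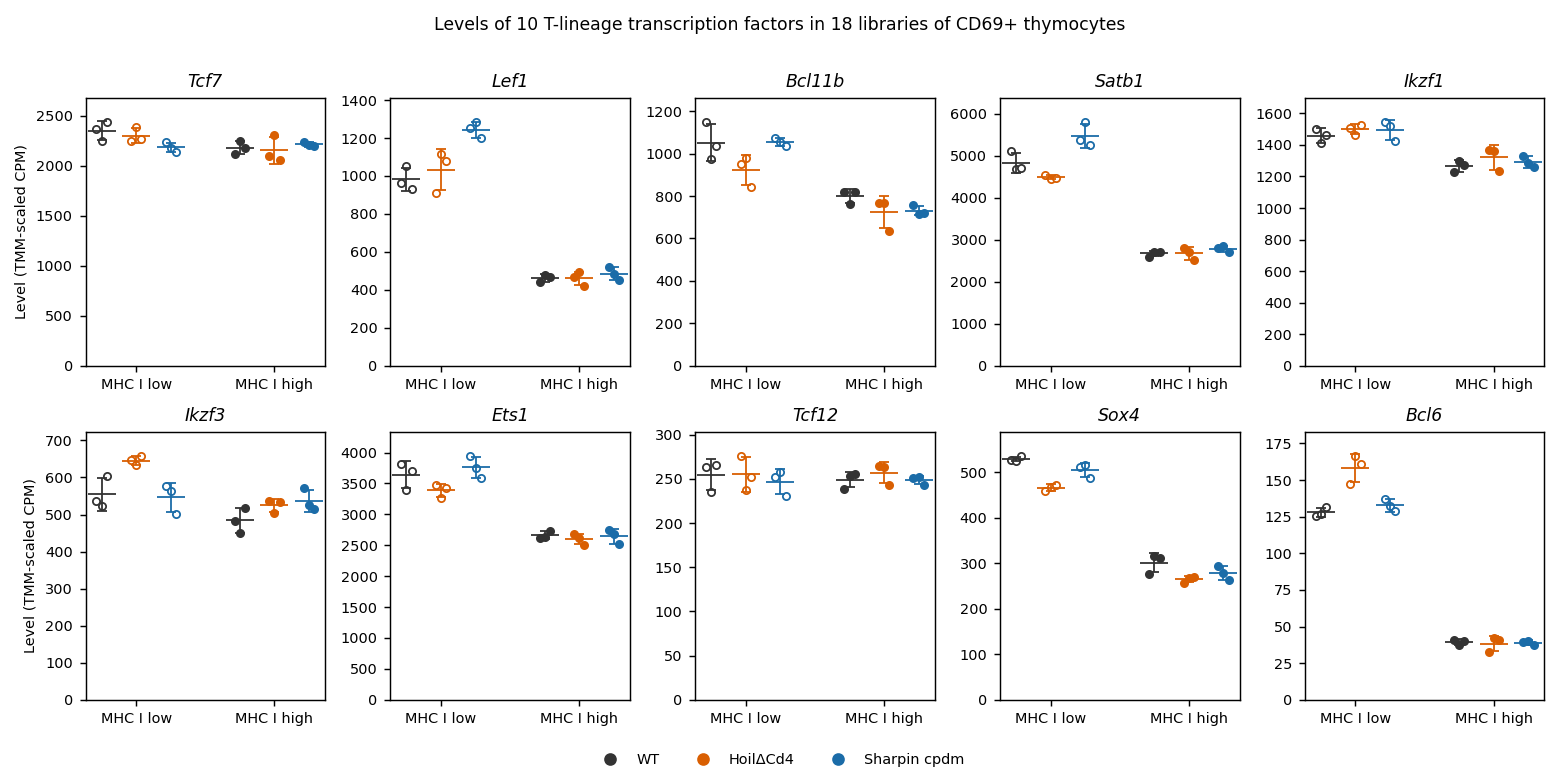
Levels of the 10 genes in TMM-scaled CPM (vertical axes, from 0) in each of 18 libraries, with open points for MHC I low and filled points for MHC I high, colours for the genotypes, and a bar with whiskers for the mean ± SD of 3 mice. Bcl6, Lef1, Satb1, Sox4, Ets1, Bcl11b and Ikzf1 lie lower in every MHC I high library than in every MHC I low library, whereas Tcf12 spans 231 to 275 CPM over all groups.

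Most of these genes changed between the fractions. In WT cells 9 of the 10 fell and none rose, where 26.8% of all genes tested fell and 27.5% rose, and the median log2 fold change was -0.416 for the 10 genes against -0.004 for all genes. In HoilΔCd4 cells 8 of 10 fell (21.7% of all genes fell and 23.5% rose), with a median of -0.371 against -0.003. In Sharpin cpdm cells 7 of 10 fell (27.4% of all genes fell and 27.2% rose), with a median of -0.521 against 0.001. The 10 genes, and the lists of relatives below, were chosen with earlier results of these data known. Such shares therefore describe the set and do not test it. In bulk RNA of this kind, fewer cells that express a gene and less RNA of it per cell cannot be told apart. The sort separated the fractions by MHC I, and the summed level of 7 markers of DP cells went in WT from between 533 and 538 CPM in the earlier to between 265 and 303 CPM in the later fraction, while that of 6 markers of mature single-positive (SP) cells went from between 713 and 738 to between 1520 and 1610 CPM. The summed DP markers went from 572 to 674 CPM to 354 to 548 CPM in HoilΔCd4 and from 446 to 455 CPM to 306 to 392 CPM in Sharpin cpdm cells. Taken singly, the DP markers went both ways. In the later fraction 5 were lower and 1 higher in WT, 2 lower and 3 higher in HoilΔCd4, and 2 lower and 4 higher in Sharpin cpdm cells. Of the 6 mature SP markers 5 were higher and 1 lower in each genotype. All 7 and all 6 of these markers were detected in every group, and their part in the falls described next was not tested.

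Bcl6, the repressor gene on chromosome 16 (chr16:23965050-23988866, GRCm38), showed the steepest fall. Its levels in WT mice 1, 2 and 3 were 126, 127 and 132 CPM in the earlier fraction and 40.8, 37.3 and 40.4 CPM in the later one. The corresponding values were 148, 166 and 161 against 32.8, 41.9 and 40.5 CPM in HoilΔCd4 mice, and 137, 132 and 129 against 39.8, 40.0 and 37.1 CPM in Sharpin cpdm mice. No library of the later fraction came near any of the earlier one, and within the MHC I high fraction the 3 genotypes overlapped. The log2 fold change was -1.68 ± 0.055 (SE) in WT (adjusted p = 1.07e-21, limma), -2.02 ± 0.067 in HoilΔCd4 (adjusted p = 4.46e-21) and -1.76 ± 0.058 in Sharpin cpdm cells (adjusted p = 1.05e-21).

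Lef1 (chr3:131110297-131224357), the partner of Tcf7 in the TCF/LEF family, fell to under 500 CPM in all but 1 of the MHC I high libraries. WT MHC I low cells held 960.3, 1052 and 934 CPM, and WT MHC I high cells 440.1, 480.5 and 467 CPM. The fall was -1.08 ± 0.053 on the log2 scale in WT, -1.16 ± 0.065 in HoilΔCd4 and -1.37 ± 0.056 in Sharpin cpdm cells (adjusted p between 1.04e-18 and 4.24e-15). It was seen in 9 of 9 mice, from -0.965 in HoilΔCd4 mouse 1 to -1.41 in Sharpin cpdm mouse 3. In the GENCODE M21 annotation the antisense transcript Gm43352 covers 13.7% of the exonic bases of Lef1. Reads were counted on RefSeq exons, for which this overlap was not computed. The strand setting of the counting is not given in the sources used here, so reads of Gm43352 may be among the Lef1 counts.

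Satb1 (chr17:51736187-51833290), a nuclear matrix protein gene, was the most abundant of the 10 by CPM in the MHC I low fraction and lost over 40% of its level in each genotype. WT mice 1, 2 and 3 had 5102, 4688 and 4695 CPM in the earlier and 2594, 2714 and 2710 CPM in the later fraction. The log2 fold change was -0.85 ± 0.041 in WT (a change of -44.6%, adjusted p = 2.06e-17), -0.75 ± 0.051 in HoilΔCd4 (-40.7%, adjusted p = 1.09e-13) and -0.98 ± 0.043 in Sharpin cpdm cells (-49.5%, adjusted p = 1.65e-18). Sox4 (chr13:28948919-28953699), which encodes an HMG-box factor of early T-cell development, had estimates between -0.81 and -0.87 on the log2 scale. It went from 527, 525 and 535 CPM to 278, 315 and 311 CPM in WT, a log2 fold change of -0.81 ± 0.043 (adjusted p = 2.3e-16), with -0.81 ± 0.053 in HoilΔCd4 and -0.87 ± 0.045 in Sharpin cpdm cells. In GENCODE M21 the lincRNA Gm26735, on the opposite strand, covers 54.6% of the exonic bases of Sox4. The overlap with the RefSeq exons counted was not computed, and part of these counts may come from Gm26735.

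The 250 bases before the transcription start of these 4 genes are printed because they are the members that moved together by the largest amounts between the fractions (RefSeq, GRCm38.p6, each 5′ to 3′ on the strand of the gene). The window nearest to the 5′ end of each gene was used, which is chr16:23988853-23989102 for Bcl6 (minus strand), chr3:131110047-131110296 for Lef1 (plus strand), chr17:51833291-51833540 for Satb1 (minus strand) and chr13:28953700-28953949 for Sox4 (minus strand). Capitals mark matches to the letters that were searched on both strands, CTTTGAT for TCF/LEF factors, CCGGAA for Ets factors, CAGCTG and CAGGTG for E proteins, TGGGAA for Ikaros and GGGANNNNCC for NF-κB, the last of which can overlap the Ikaros letters.
Bcl6: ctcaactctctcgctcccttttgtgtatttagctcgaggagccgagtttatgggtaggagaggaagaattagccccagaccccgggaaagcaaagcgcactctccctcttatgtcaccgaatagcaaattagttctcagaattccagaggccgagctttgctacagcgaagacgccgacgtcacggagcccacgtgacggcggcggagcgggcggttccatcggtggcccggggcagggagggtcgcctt
Lef1: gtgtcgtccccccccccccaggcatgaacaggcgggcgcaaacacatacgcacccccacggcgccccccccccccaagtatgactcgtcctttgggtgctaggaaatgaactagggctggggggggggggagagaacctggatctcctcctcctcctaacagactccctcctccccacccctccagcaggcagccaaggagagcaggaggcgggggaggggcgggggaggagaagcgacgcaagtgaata
Satb1: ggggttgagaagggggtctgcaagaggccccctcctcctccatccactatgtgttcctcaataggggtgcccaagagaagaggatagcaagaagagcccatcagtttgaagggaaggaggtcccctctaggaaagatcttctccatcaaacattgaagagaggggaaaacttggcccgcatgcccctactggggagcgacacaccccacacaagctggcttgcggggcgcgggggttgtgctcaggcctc
Sox4: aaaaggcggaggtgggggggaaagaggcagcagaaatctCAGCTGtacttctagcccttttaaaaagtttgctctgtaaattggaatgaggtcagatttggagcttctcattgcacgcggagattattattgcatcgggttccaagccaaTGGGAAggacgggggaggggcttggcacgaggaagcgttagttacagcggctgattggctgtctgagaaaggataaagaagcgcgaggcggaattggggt

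Capitals therefore appear only in the Sox4 window, with an E-box 211 bases and an Ikaros match 100 bases before the start. Windows were found for 8 of the 10 genes, all but Ets1 and Ikzf3. E-box letters were in 3 of these 8 (Tcf7, Tcf12 and Sox4) and in 27.7% of all 32851 promoter windows of this length. The windows of Tcf7 (chr11:52283015-52283264), Bcl11b (chr12:108003415-108003664) and Ikzf1 (chr11:11685675-11685924) lie inside the gene spans given in this report. Matches in them, among them the Tcf7 E-box, are therefore not upstream of the gene as given. The windows of Tcf12 and Bcl6 reach into those spans in part. The Ikaros letters were in 1 of 8 (Sox4) against 21.6% of all windows. The NF-κB letters were in 1 of 8 against 17.6%, in Ikzf1, 31 bases before the start that its window uses and inside the gene span. The Ets and TCF/LEF letters were in 0 of 8, against 12% and 3.21% of all windows. Such matches describe the letters in the window only. The GC content of the printed windows ran from 50.8% in Sox4 to 66.4% in Lef1, where the median of all windows was 52.4%.

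Ets1, Bcl11b, Ikzf1 and Ikzf3 fell by smaller amounts. Ets1 (chr9:32636241-32757820) went in WT from 3640 ± 221 to 2664 ± 61 CPM, a log2 fold change of -0.45 ± 0.041 (adjusted p = 9.85e-11), and fell in the other genotypes too (-0.39 ± 0.051 in HoilΔCd4 and -0.51 ± 0.043 in Sharpin cpdm cells). Bcl11b (chr12:107910403-108004145), the commitment factor, went from 1052 ± 88.8 to 800.2 ± 32.7 CPM in WT (-0.39 ± 0.051, adjusted p = 1.29e-07), with changes of -0.35 ± 0.062 in HoilΔCd4 and -0.54 ± 0.053 in Sharpin cpdm cells. Ikzf1 (chr11:11684962-11772930) changed by -13.5% in WT (adjusted p = 6e-05), -12.3% in HoilΔCd4 (adjusted p = 0.00234, and 0.124 without HoilΔCd4 mouse 3) and -14.1% in Sharpin cpdm cells. Its relative Ikzf3 (chr11:98464610-98546031), which encodes Aiolos, was called in 2 of the 3 genotypes. Ikzf3 fell in WT (-0.16 ± 0.048, adjusted p = 0.00565) and in HoilΔCd4 cells (-0.3 ± 0.059, adjusted p = 8.34e-05), whereas in Sharpin cpdm cells the estimate was -0.05 ± 0.05 (95% confidence interval -0.15 to 0.055, adjusted p = 0.435). The difference in this change was itself not called between Sharpin cpdm and WT (0.11 ± 0.069, adjusted p = 0.414) or between HoilΔCd4 and WT (-0.14 ± 0.076, adjusted p = 0.522).

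Tcf7 and Tcf12 stayed closest to their starting level. Tcf7 (chr11:52246527-52283383) was 2370, 2253 and 2437 CPM in the 3 WT mice before and 2122, 2249 and 2177 CPM after the step, so its ranges ended just short of overlapping. Its fall of -0.12 ± 0.039 in WT was called (adjusted p = 0.0118), but the adjusted p was 0.128 with edgeR and 0.065 with DESeq2, 0.0604 with the mouse number as a fixed replicate block, and 0.231 and 0.315 without WT mouse 1 and WT mouse 3. The estimate was -0.09 ± 0.048 in HoilΔCd4 (interval -0.19 to 0.011, and called at an adjusted p of 0.0354 without the MHC I high library of mouse 2) and 0.02 ± 0.041 in Sharpin cpdm cells (-0.068 to 0.1). Tcf12 (chr9:71844252-72111893), the gene of HEB, was 255 ± 17.2 CPM in WT before and 249 ± 8.85 CPM after the step, and its intervals between fractions lay within -0.13 and 0.13 on the log2 scale in each genotype. The other E protein genes did fall in WT, Tcf3 (the gene of E2A) by -0.13 ± 0.043 (adjusted p = 0.011) and Tcf4 by -0.42 ± 0.14 (adjusted p = 0.0144).

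**Figure D2:**
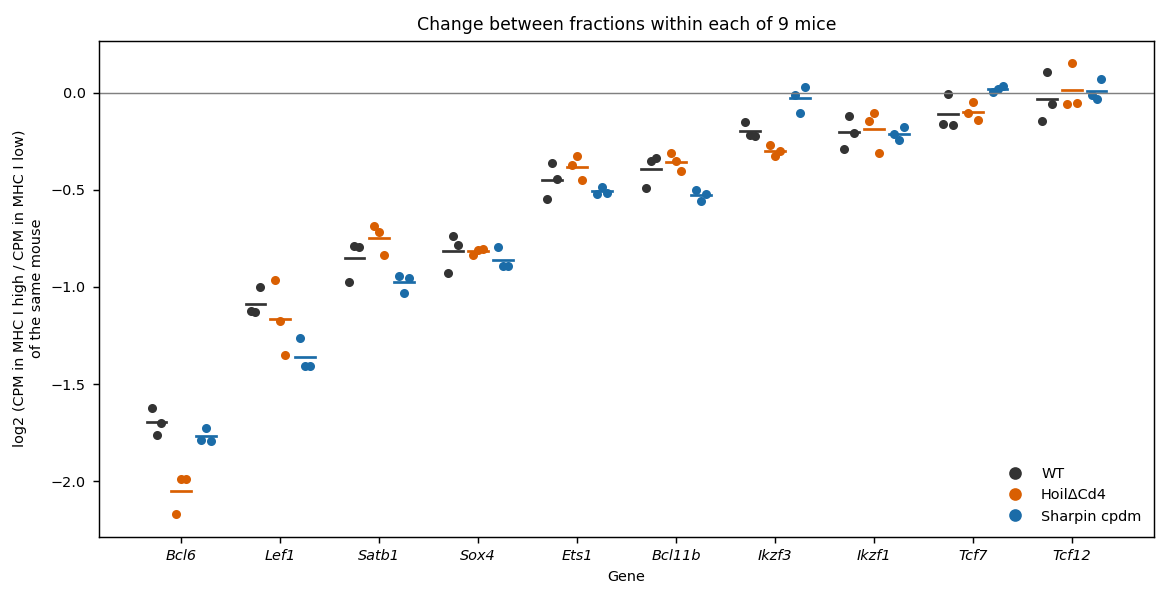
Log2 ratio of the CPM in the MHC I high to that in the MHC I low fraction of the same mouse (vertical axis) for the 10 genes, ordered by their median, with a point for each of 9 mice, colours for the genotypes and a short line for the mean of 3 mice. Lef1, Bcl11b, Satb1, Ikzf1, Ets1, Sox4 and Bcl6 lie below 0 in 9 of 9 mice, Ikzf3 in 8, and Tcf7 and Tcf12 in 6.

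Between HoilΔCd4 and WT thymocytes 1 of the 10 genes was called at each stage. The share of all genes tested was 0.985% in the earlier and 6.65% in the later fraction. With 1 call of 10, the set cannot be said to differ less or more often than other genes. In MHC I low cells 1 of 10, Bcl6, was higher and none was lower (0.422% and 0.563% of all genes tested). In MHC I high cells 1 of 10, Sox4, was lower and none was higher (2.81% and 3.84% of all genes). The median log2 fold change of the 10 genes was -0.02 in the earlier and -0.016 in the later fraction, against -0.001 and 0 for all genes.

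Bcl6 at 148, 166 and 161 CPM in the 3 HoilΔCd4 mice stood above 126, 127 and 132 CPM in the 3 WT mice in the MHC I low fraction, and above the 3 Sharpin cpdm mice. The increase was 23.6% (log2 fold change 0.31 ± 0.073, adjusted p = 0.0301, limma). It was not called without a filter on low counts (adjusted p = 0.0749), without HoilΔCd4 mouse 2 (0.155) or mouse 3 (0.173), or without WT mouse 1 (0.159), 2 (0.0538) or 3 (0.068), with estimates between 0.27 and 0.356 over all 21 alternatives. In the later fraction the same comparison gave -0.04 ± 0.066 (interval -0.17 to 0.093, adjusted p = 0.769). Beside this, the summed DP markers were 572 to 674 CPM in HoilΔCd4 and 533 to 538 CPM in WT MHC I low cells, and the summed mature SP markers 607 to 649 against 713 to 738 CPM. Taken singly, none of the 7 DP markers was called and 1 of the 6 mature SP markers was called lower. The part of these markers in the Bcl6 result was not tested. The study describes the subsets of both sorted fractions, defined by CD4 and CD8, as comparable between the genotypes.

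The fall of Bcl6 between the fractions was -2.17, -1.99 and -1.99 on the log2 scale in HoilΔCd4 mice 1, 2 and 3 and -1.62, -1.76 and -1.70 in WT mice, ranges that did not overlap. The difference between these falls was -0.35 ± 0.087 with an adjusted p of 0.0734 when the mouse was a random block, and -0.37 with an adjusted p of 0.0237 with each mouse as a fixed replicate block. Of all genes tested, 0.102% changed more towards lower and 0.297% more towards higher levels in HoilΔCd4 than in WT, and none of the 10 genes was called in either direction by limma, edgeR or DESeq2, with 1 at an unadjusted p under 0.05.

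Sox4 was called lower in HoilΔCd4 cells of the later stage. In the MHC I high fraction it was 257, 267 and 271 CPM in HoilΔCd4 against 278, 315 and 311 CPM in WT mice, without overlap, a change of -12.4% (-0.19 ± 0.051, adjusted p = 0.0217). In the MHC I low fraction it was 459, 468 and 473 against 527, 525 and 535 CPM, also without overlap, but with -0.18 ± 0.057 and an adjusted p of 0.132 it was not called there. The call in MHC I high cells was lost with edgeR (adjusted p = 0.0687), without sample quality weights (0.0741), without HoilΔCd4 mouse 2 (0.111) or only its MHC I high library (0.0891), and without HoilΔCd4 mouse 3 (0.0606), WT mouse 2 (0.0926) or WT mouse 3 (0.331). In that fraction 6 of 7 DP markers were called higher in HoilΔCd4 cells, with a sum of 354 to 548 CPM against 265 to 303 CPM in WT, while the summed mature SP markers were 1330 to 1360 against 1520 to 1610 CPM. Their part in the Sox4 result was not tested.

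Bcl11b was not called in HoilΔCd4 cells, although its estimates were below 0 at both stages. It was 949, 978 and 842 CPM in HoilΔCd4 against 1148, 973 and 1034 CPM in WT MHC I low cells (-0.21 ± 0.067, unadjusted p = 0.00411, adjusted p = 0.158). The groups overlapped there through WT mouse 2. In the later fraction it was -0.18 ± 0.061 (adjusted p = 0.0713), and called with at least 10 counts in every sample (0.0432) and without HoilΔCd4 mouse 1 (0.0326) or WT mouse 2 (0.0429). With Xist as a covariate for sex, Bcl11b was called lower in HoilΔCd4 cells at both stages (-0.297, adjusted p = 0.0154, and -0.237, adjusted p = 0.0149), and the Bcl6 and Sox4 calls were kept. Ikzf3 was 646, 632 and 657 CPM in HoilΔCd4 against 536, 523 and 605 CPM in WT MHC I low cells, without overlap, yet was not called either (0.22 ± 0.064, adjusted p = 0.103, and 0.0272 without WT mouse 3).

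Between Sharpin cpdm and WT thymocytes 2 of the 10 genes were called, both in the earlier fraction. In MHC I low cells 2 of 10, Lef1 and Satb1, were higher and none was lower (5.28% and 6.86% of all genes tested). In MHC I high cells none of the 10 was called higher or lower by limma (4.15% and 4.46% of all genes), 2 had an unadjusted p under 0.05, and edgeR and DESeq2 called none either. Those 2 were Bcl11b (-0.16 ± 0.056, adjusted p = 0.0771) and Sox4 (-0.13 ± 0.047, adjusted p = 0.092). Bcl11b was called there with at least 10 counts in every sample (0.0483), with Xist as a covariate (0.0109), with only the groups compared (0.0344) and without HoilΔCd4 mouse 3 (0.0322), and Sox4 without Sharpin cpdm mouse 1 (0.0459). These comparisons use the same WT libraries as those of HoilΔCd4 mice. Set directly against each other in MHC I high cells, the 2 mutants did not differ by a call in Sox4 (-0.06 ± 0.052, adjusted p = 0.514, limma).

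Lef1 was 1251, 1283 and 1199 CPM in Sharpin cpdm MHC I low cells, above each WT library (960.3, 1052 and 934 CPM) and each HoilΔCd4 library (908, 1114 and 1077 CPM). The increase over WT was 28% (log2 fold change 0.36 ± 0.065, 95% confidence interval 0.224 to 0.488, adjusted p = 0.000392), and it was called in 21 of 21 alternatives, with estimates from 0.314 to 0.403. After the step Lef1 was 521, 484 and 452 CPM in Sharpin cpdm and 440.1, 480.5 and 467 CPM in WT mice, which overlapped (0.06 ± 0.058, adjusted p = 0.577). The change between fractions was thus larger in Sharpin cpdm than in WT cells by -0.29 ± 0.077 (adjusted p = 0.0311), where 0.93% of all genes changed more towards lower and 2.2% more towards higher levels. Lef1 was the 1 of the 10 genes called in this comparison, and the call was lost in 11 of 22 alternatives, among them edgeR (adjusted p = 0.278), DESeq2 (0.239), no replicate block (0.11), and the fits without Sharpin cpdm mouse 1 (0.0508), 2 (0.176) or 3 (0.147) and without WT mouse 1 (0.0598) or 3 (0.246).

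Satb1 was 5375, 5794 and 5247 CPM in Sharpin cpdm against 5102, 4688 and 4695 CPM in WT MHC I low cells, without overlap. The increase was 13.8% (0.19 ± 0.05, adjusted p = 0.013), and was not called with edgeR (adjusted p = 0.0542), without Sharpin cpdm mouse 2 (0.21) or without WT mouse 3 (0.0711). After the step the estimate was 0.06 ± 0.045 (adjusted p = 0.513). Markers differed between these groups as well. In Sharpin cpdm MHC I low cells the summed DP markers were 446 to 455 CPM against 533 to 538 CPM in WT, the summed mature SP markers 834 to 858 against 713 to 738 CPM, and the 5 markers of regulatory T cells 557 to 617 against 876 to 1080 CPM. The last sum was mostly Ikzf2 (514 against 874 CPM on average). Of its 5 markers 2 were called, both lower. Among the others, 1 of 7 DP markers was called lower and 2 of 6 mature SP markers higher. Foxp3 was 0.491 against 0.759 CPM, and the sort had gated out cells with CD25. Their part in the Lef1 and Satb1 results was not tested. Both calls were kept with Xist as a covariate.

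**Figure D3:**
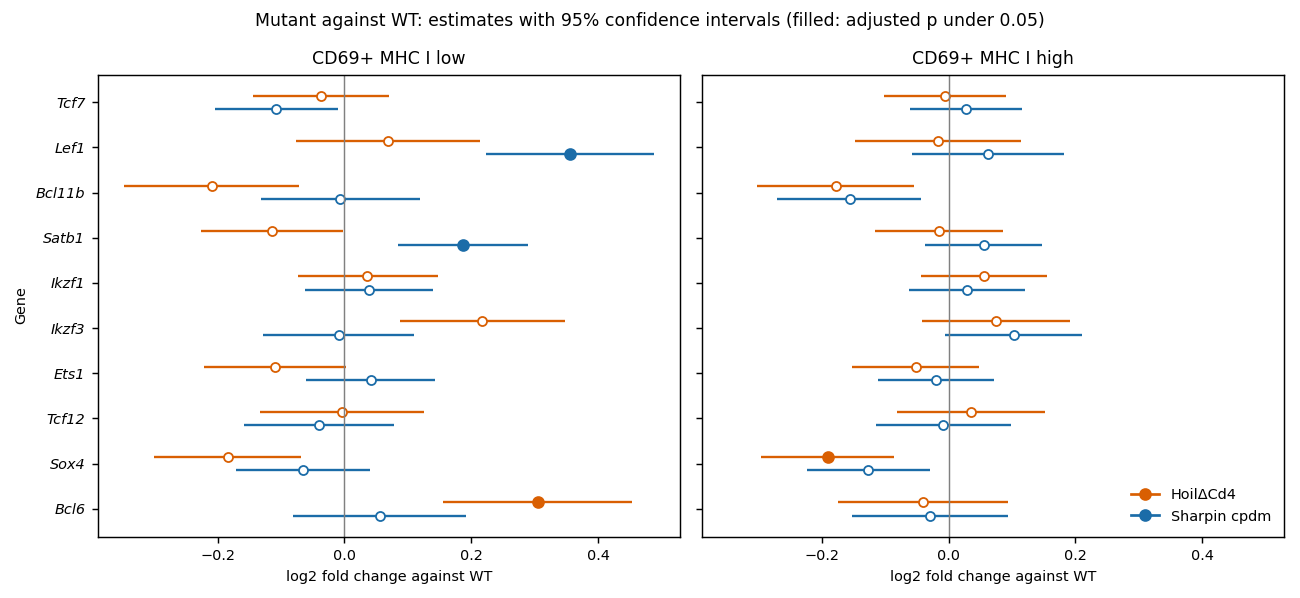
Log2 fold change against WT (horizontal axes) of the 10 genes in MHC I low cells (left) and MHC I high cells (right), with points for the estimates of the model, lines for 95% confidence intervals and filled points for an adjusted p under 0.05. Filled points are Bcl6 in HoilΔCd4 and Lef1 and Satb1 in Sharpin cpdm cells on the left, and Sox4 in HoilΔCd4 cells on the right.

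When both mutants were set against each other in MHC I low cells, 4 of 10 genes differed, 2 higher and 2 lower in HoilΔCd4 (5.13% and 4.36% of all genes tested). Satb1 was 4530, 4439 and 4479 CPM in HoilΔCd4 mice, below each WT and each Sharpin cpdm library. Its difference from Sharpin cpdm was -0.3 ± 0.057 (adjusted p = 0.000695, limma) and was called in 21 of 21 alternatives. Its difference from WT was not called (-0.11 ± 0.055, adjusted p = 0.442). Lef1 was lower in HoilΔCd4 than in Sharpin cpdm cells by 18% (-0.29 ± 0.073, adjusted p = 0.0117). Bcl6 was higher by 18.9% (0.25 ± 0.075, adjusted p = 0.0319) and Ikzf3 by 17% (0.23 ± 0.066, adjusted p = 0.0262). Ikzf3 was 576, 563 and 502 CPM in the Sharpin cpdm mice, so the HoilΔCd4 libraries lay above both other genotypes. The Lef1 call was lost without HoilΔCd4 mouse 1 (adjusted p = 0.156) or Sharpin cpdm mouse 2 (0.0996), and the Ikzf3 call without HoilΔCd4 mouse 1 (0.0846) or 3 (0.1) or Sharpin cpdm mouse 3 (0.108). The Bcl6 call was lost without HoilΔCd4 mouse 2 (0.124) or 3 (0.105) or Sharpin cpdm mouse 2 (0.106) or 3 (0.0875), and also with no filter on low counts (adjusted p = 0.0509) and with the mouse number as a fixed replicate block (0.0603). Bcl11b was not called (-0.2 ± 0.069, adjusted p = 0.0604), but was called without sample quality weights (0.0489) and with Xist as a covariate (0.0236). In the same comparison 3 of 7 DP markers were higher and 3 of 6 mature SP markers lower in HoilΔCd4 cells, with sums of 572 to 674 against 446 to 455 CPM and of 607 to 649 against 834 to 858 CPM. Their part in these results was not tested. In MHC I high cells none of the 10 was called by limma in either direction (3.7% of all genes higher and 3.02% lower in HoilΔCd4), none had an unadjusted p under 0.05, and edgeR and DESeq2 called none.

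Ikzf1, Ets1, Tcf7 and Tcf12 were not called between any of the 3 genotypes at either stage. The widest estimates of Ets1 and Tcf7 were -0.15 ± 0.056 for Ets1 between HoilΔCd4 and Sharpin cpdm MHC I low cells (adjusted p = 0.0901) and -0.11 ± 0.048 for Tcf7 between Sharpin cpdm and WT MHC I low cells (adjusted p = 0.142). For Ikzf1 the 95% confidence intervals of these 6 comparisons lay between -0.116 and 0.156, and for Tcf12 between -0.159 and 0.17.

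The relatives and partners of the 10 factors were taken from lists of 95 genes, 83 of which were tested. In WT 24 of the 83 rose and 43 fell between the fractions, with a median log2 fold change of -0.167. Of all genes tested 27.5% rose and 26.8% fell, with a median of -0.004. The list of other T-lineage regulators (22 genes, 7 higher and 13 lower) held the widest changes. Klf2, which controls exit from the thymus, rose from 9.78 ± 1.08 to 197 ± 6.66 CPM (4.31 ± 0.082, adjusted p = 3.24e-25). Myb fell from 638 ± 20.9 to 204 ± 23.6 CPM (-1.58 ± 0.049, adjusted p = 2.57e-22) and Gata3, the factor of CD4 fate, from 271 ± 14.4 to 89.8 ± 5.8 CPM (-1.58 ± 0.053, adjusted p = 1.41e-21).

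Within their own families the members and their relatives did not all move together. In the Ikaros family Ikzf4 rose in WT from 13.2 ± 0.615 to 49.8 ± 4.97 CPM (1.95 ± 0.074, adjusted p = 3.95e-20) while Ikzf1 and Ikzf3 fell, and Ikzf2, the gene of Helios and one of the markers of regulatory T cells, fell from 874 ± 105 to 528 ± 48.1 CPM. Of the 15 genes in the list of Ikaros relatives and NuRD subunits, 6 rose and 5 fell. In the Sox family Sox12 rose in WT from 3.25 ± 0.539 to 6.96 ± 0.818 CPM (adjusted p = 8.29e-07) and Sox13 fell from 13.4 ± 3.38 to 3.46 ± 0.926 CPM (adjusted p = 9.77e-10). Ets2 fell with Ets1 (-0.47 ± 0.049, adjusted p = 1.81e-09), and 7 of 10 Ets relatives tested fell and 2 rose. Of the TCF/LEF relatives and cofactors 4 of 12 rose and 4 fell, and Tcf7l1 and Tcf7l2, at 6.47 ± 0.17 and 10.4 ± 1.86 CPM in WT MHC I low cells, were not called. Of 12 partners of Bcl6 2 rose and 7 fell, of 5 E protein and Id genes none rose and 4 fell, and of 4 progenitor genes 1 rose and 2 fell. Bcl11a and Bcl6b, the paralogs of Bcl11b and Bcl6, reached at most 0.626 and 0.469 CPM in a library and were not tested.

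**Figure D4:**
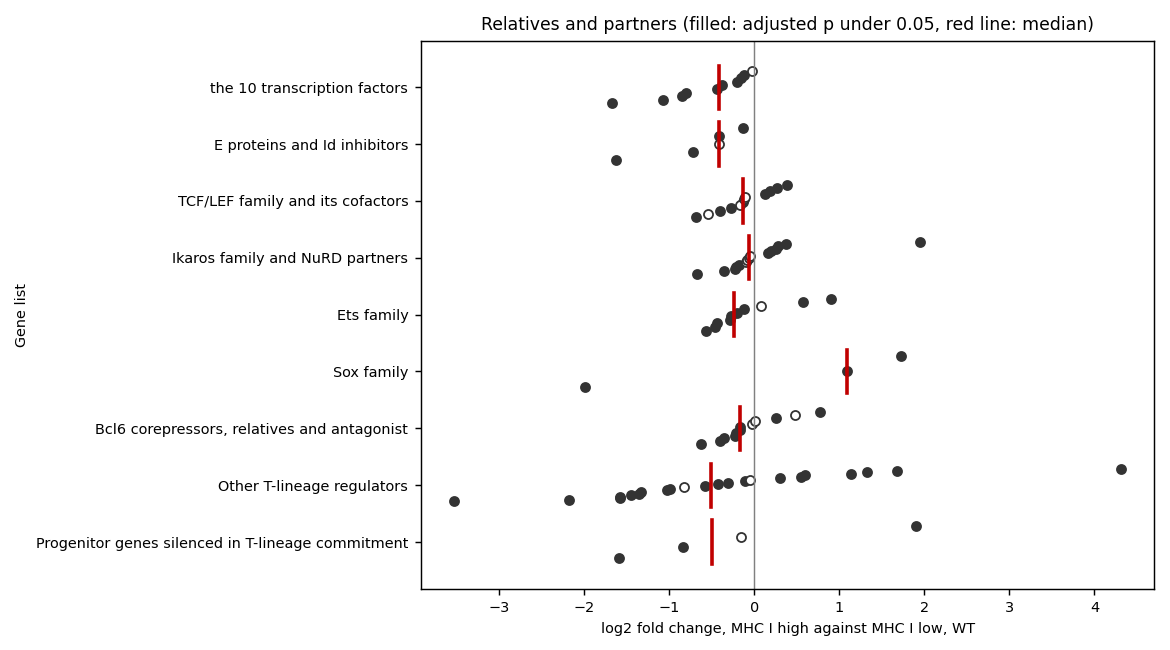
Log2 fold change of the MHC I high over the MHC I low fraction in WT (horizontal axis) for the 10 factors and for the tested genes of 8 lists of relatives and partners, with a point for each gene, filled where the adjusted p was under 0.05, and a red line at the median of each list. The 10 factors lie below 0, whereas each list other than that of E protein and Id genes holds genes on both sides.

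Against WT, 1 of the 83 relatives and partners was called higher in HoilΔCd4 MHC I low cells (0.422% of all genes), Myb, which was 803 ± 20.8 against 638 ± 20.9 CPM (0.32 ± 0.065, adjusted p = 0.00605). In HoilΔCd4 MHC I high cells 5 were higher and 1 lower (3.84% and 2.81% of all genes). Sox13 was 9.64 ± 1.38 against 3.46 ± 0.926 CPM (1.53 ± 0.2, adjusted p = 5.99e-05), while Ikzf4 was lower (-0.4 ± 0.088, adjusted p = 0.00547). In Sharpin cpdm MHC I low cells 9 were higher and 9 lower (5.28% and 6.86% of all genes), led by Nfatc1 (0.35 ± 0.07, adjusted p = 0.00115) and Bcl9, a cofactor of beta-catenin (0.25 ± 0.057, adjusted p = 0.00421), and by Kit (-1.04 ± 0.13, adjusted p = 1.08e-06) and Ikzf2 (-0.76 ± 0.095, adjusted p = 4.09e-05). In Sharpin cpdm MHC I high cells 5 were higher and 6 lower (4.15% and 4.46% of all genes), among them Sox13 (1.15 ± 0.18, adjusted p = 0.000292), Nfatc1 (0.35 ± 0.063, adjusted p = 0.00053), Ikzf2 (-0.51 ± 0.086, adjusted p = 0.000996) and Nr4a1 (-0.27 ± 0.057, adjusted p = 0.00215).

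The gene most like each factor was the one whose log2 CPM had the highest Pearson correlation with it over the 18 libraries. Because the libraries fall into 2 fractions, any genes that differ between the fractions share that pattern, and the values are descriptions without a test. Bcl6 was most like Mpp4 (r = 0.994), Satb1 most like Arhgef6 (r = 0.992), Sox4 most like Egr2 (r = 0.99) and Lef1 most like Gata3 (r = 0.989). Ets1 was most like Rbl2 (r = 0.982), Bcl11b most like Maml2 (r = 0.957) and Ikzf1 most like Mtss1 (r = 0.946). The lowest of these correlations were r = 0.922 for Tcf7 and Fitm2, 0.873 for Ikzf3 and Pgm2l1 and 0.86 for Tcf12 and Virma.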

How the data were processed

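The authors' sort gated out dead cells, cells with CD25 or CD44 and cells of other lineages. They made TruSeq libraries, aligned single-end reads to mm10 with subread, and summarised them by gene with featureCounts on its RefSeq annotation. The deposited values are raw counts of 27179 genes, 1 column per library, without normalization or pooling of mice. Versions and the settings for strand and multi-mapped reads are not given in the sources used here. Symbols and coordinates came from RefSeq (GRCm38.p6), which matched 25275 gene IDs. The other 1904 held 0.655% of the counts.

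As in the study's methods, a gene was tested if 3 or more libraries reached 0.5 CPM, and Y-linked genes, Xist, predicted genes and unmatched IDs were dropped, which left 12797. Log2 CPM (TMM factors 0.9874 to 1.015, prior count 1) of all 18 libraries were fitted with limma 3.58.1 (R 4.3.3), with sample quality weights of 0.628 to 2.42, the mouse as random block (correlation 0.224), an abundance trend and robust moderation. P-values are two-sided and adjusted by Benjamini-Hochberg over all genes tested, and a gene is called under 0.05. Alternatives were edgeR 4.0.16 (quasi-likelihood), DESeq2 1.42.0, other filters, scaling, prior counts, weights and blocks, Xist as a covariate, only the groups compared, and each mouse or a library left out. The tests were run on simulated counts for HoilΔCd4 against WT in MHC I low cells only, with log2 changes of size 1 in 200 genes. There limma recovered 94.5% of the changed genes, and 5.03% of its calls were unchanged genes. Smaller changes and a correlation within a mouse were not simulated. Overlapping transcripts were looked up in GENCODE M21.

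The 11 comparisons set the genotypes against each other in each fraction, the fractions against each other in each genotype, and that step in each mutant against the step in WT. Both fractions of a mouse come from the same animal, and their deviations correlated across genes (r = 0.0702 to 0.256 in 9 mice, above 0.1 in 8). Libraries of a group differed by more than counting noise. All 10 factors are named, and of the listed genes the 2 with the smallest adjusted p in each direction and comparison among those called, paralogs of a factor, and the gene most like each factor. The members and lists were chosen with earlier results of these data known. Some genes that the naming rule selects are not reported here by name.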

Additional observations from a re-analysis of the deposited data

Results flagged for a closer look

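The change of Lef1 between the fractions differed between Sharpin cpdm and WT mice by -0.2937 on the log2 scale in the interaction term of the model (adjusted p = 0.0311). Lef1 fell by 1.27, 1.41 and 1.41 within Sharpin cpdm mice 1, 2 and 3 and by 1.13, 1.13 and 0.999 within WT mice 1, 2 and 3, so the mice did not overlap. Its estimates over 22 alternatives ranged from -0.331 to -0.246, with adjusted p between 0.013 and 0.278, and it was called in 11 of them. The groups differed in the MHC I low fraction, where Lef1 was 1244 ± 42.2 CPM in Sharpin cpdm and 982 ± 62.1 CPM in WT cells, and overlapped in the MHC I high fraction, at 486 ± 34.4 and 463 ± 20.6 CPM.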

How the results depend on the processing

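Across the 10 factors, the 11 comparisons and their alternatives, 2301 of 2360 values kept their side of the threshold, 44 lost a call and 15 gained one. Among the 2301, 84 had the other sign, all of them not called and at most 0.0746 in size on the log2 scale, and no called value changed sign. The counts of factors called that differed from the reported ones follow. For HoilΔCd4 against WT in MHC I low cells, 0 were called without a filter on low counts, 2 with Xist as a covariate, and 0 to 1 when each mouse was left out in turn. For HoilΔCd4 against WT in MHC I high cells, 0 were called with edgeR, without sample quality weights or without the MHC I high library of HoilΔCd4 mouse 2, 2 with at least 10 counts in every sample or with Xist as a covariate, and 0 to 2 when a mouse was left out. For Sharpin cpdm against WT, 1 was called in MHC I low cells with edgeR and 1 to 2 when a mouse was left out, and in MHC I high cells 1 with at least 10 counts in every sample, with Xist as a covariate or with only the groups compared, and 0 to 1 when a mouse was left out. For HoilΔCd4 against Sharpin cpdm in MHC I low cells, 5 were called without sample quality weights or with Xist as a covariate, 3 without a filter on low counts or with the mouse number as a fixed replicate block, and 2 to 4 when a mouse was left out. Between the fractions, 8 in place of 9 were called in WT with edgeR, DESeq2 or the mouse number as a fixed replicate block and 8 to 9 when a mouse was left out, and in HoilΔCd4 cells 9 in place of 8 without the MHC I high library of mouse 2 and 7 to 8 when a mouse was left out. The cause was not tested.

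For the change between fractions against WT, HoilΔCd4 had 1 call with each mouse as a fixed replicate block, and Sharpin cpdm had 0 with edgeR, DESeq2, no filter on low counts, no sample quality weights, no replicate block or the mouse number as a fixed replicate block, and 0 to 1 when a mouse was left out. Over all genes that comparison gave 400 calls, against 30 with edgeR and 134 with DESeq2, and HoilΔCd4 against WT in MHC I high cells gave 851, against 404 with edgeR, 314 without sample quality weights, 181 without the MHC I high library of HoilΔCd4 mouse 2, 177 and 297 without HoilΔCd4 mouse 2 and mouse 3, and 194 and 134 without WT mouse 1 and mouse 3. When each mouse was left out, Sharpin cpdm against WT gave between 827 and 1557 calls in MHC I low cells, against 1554, and between 238 and 1148 in MHC I high cells, against 1102. Mice with the same number in different genotypes are not related by the labels, and their deviations correlated between -0.0314 and 0.153 in 18 pairs, above 0.1 in 2. Apart from those given here and in the text, the replicate block changed no count of factors called by over 1.5 times. Without TMM scaling 56 of 60 group means moved by less than their SD, and by at most 2.45%. The median of all genes stayed within 0.016 of 0 under each scaling.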

Other observations

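Some relatives of the factors also changed differently between the fractions in the mutants. In Sharpin cpdm cells 3 of the 83 listed genes changed more towards higher and 2 more towards lower levels than in WT (2.2% and 0.93% of all genes). Myb fell less (a difference of 0.27 ± 0.071, adjusted p = 0.0285, limma). Elk3, an Ets family gene, fell more (-0.3 ± 0.068, adjusted p = 0.0106), as did Tox2 (-0.82 ± 0.23, adjusted p = 0.045), which went from 32.4 ± 4.5 to 1.53 ± 0.342 CPM in Sharpin cpdm cells. Of the 83 genes, edgeR called 0 and DESeq2 2 in this comparison, against 5 with limma. In HoilΔCd4 cells 1 was called, Hes1 (adjusted p = 0.0497), a Notch target at 1.15 CPM or less in every library.

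Between the mutants, Zbtb1 and Ets2 were higher in HoilΔCd4 than in Sharpin cpdm cells of the later fraction (Zbtb1 by 0.3 ± 0.056, adjusted p = 0.000897, Ets2 by 0.3 ± 0.06, adjusted p = 0.00192). In MHC I low cells Nfatc2 was lower in HoilΔCd4 by -0.29 ± 0.077 (adjusted p = 0.0141). Tox fell between the fractions in Sharpin cpdm cells from 558 ± 32.7 to 186 ± 22.4 CPM (-1.6 ± 0.058, adjusted p = 7.64e-20).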
